A study of Mus musculus with 6 samples.

Results

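The genes described here are 36 genes of cell adhesion, namely 15 integrin alpha subunits, 7 integrin beta subunits, 6 ligands and other adhesion molecules, and 8 adaptors that connect integrins to the cytoskeleton or to T cell receptor signalling. They were chosen by name as a functional family, out of 55177 annotated mouse genes with a transcript in the data, and their RNA was compared between Wtap KO and WT CD4+ T cells. Both groups were CD4+ T cells of the strain C57BL/6J, 3 libraries each, labelled as knockout for Wtap or as wild type. Wtap encodes a partner protein that holds the m6A writer enzymes, which methylate adenosine in mRNA, in the nucleus. Per the labels' protocols, which are the same for every library, cells were exposed to 1 µM 4-hydroxytamoxifen over 24 h to deplete Wtap and were then activated with anti-CD3 (1 µg/mL) and anti-CD28 (2.5 µg/mL). Activation took place with IL-12 (10 ng/mL) and anti-IL-4 (10 µg/mL), a Th1 condition, and lasted 40 to 48 h. The cells then grew in IL-2 (200 IU/mL) until harvest on day 4. The sources used here do not give whether WT cells carried Cre or received the drug, which piece of Wtap was removed, or whether libraries of a group came from separate animals or cultures. A p-value therefore measures the spread among these 6 libraries, which may in part be technical.

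Integrins are paired receptors of 1 alpha and 1 beta subunit that bind counter-receptors on other cells or proteins of the extracellular matrix. On a resting T cell they are mostly in a low-affinity shape. Signals from the T cell receptor or from chemokine receptors recruit talin and kindlin to the beta tail and switch them to a state that holds the cell to its target, and adaptors of the ADAP and SKAP family take part in that switch. Selectin ligands such as PSGL-1 act earlier, during rolling on the vessel wall, and integrins then bring the cell to a stop.

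The libraries held 32363139 to 44039467 estimated counts. Wtap RNA summed over all its transcripts was 114, 119.6 and 119 CPM (counts scaled to library size) in Wtap KO libraries, against 114, 106.5 and 94.3 CPM in WT libraries, and did not pass the test (log2 fold change 0.16 ± 0.10 SE, adjusted p = 0.371, edgeR quasi-likelihood test with Benjamini-Hochberg adjustment). The transcript Wtap-205 had 5.14, 5.50 and 4.63 TPM (abundance per transcript length, scaled to a fixed total per library) in Wtap KO libraries, against 27.0, 22.9 and 18.2 TPM in WT libraries. Wtap-201 had 35.4, 38.2 and 41.3 TPM in Wtap KO libraries, against 16.2, 17.8 and 18.7 TPM in WT libraries. Wtap-203 had 11.4, 8.31 and 9.29 TPM in Wtap KO libraries, against 0, 0.236 and 0 TPM in WT libraries. Library 3 of the Wtap KO group had a male pattern, with 63.3 CPM of the Y-linked Kdm5d against 2.43 to 3.53 CPM in the other 5 libraries, so it did not come from the same animal as Wtap KO libraries 1 and 2. Defining markers of CD4 T cells were present in all libraries: their 7 markers summed to 2703 to 2887 TPM in Wtap KO cells, against 3268 to 3564 TPM in WT cells, with Cd3g and Cd4 lower by the same test.

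The adhesion genes spanned a wide range of RNA levels, from 709 ± 63.5 TPM of Selplg in Wtap KO cells and 427 ± 70.0 TPM in WT cells (SD, n = 3 each) to under 0.1 TPM of Itgb8 and Itgb4 in every library. Since TPM is scaled per length, it allows levels of different genes to be set side by side. Averaged over the 6 libraries, 8 genes were at 100 TPM or more, 20 were at 10 TPM or more, 5 lay between 1 and 10 TPM and 11 were below 1 TPM. Among the alpha subunits Itgal, Itga4 and Itga6 led in both groups, and Itgav and Itga7 followed. Among the beta subunits Itgb2 and Itgb7 led, followed by Itgb1 and Itgb3. The other 10 alpha subunits and the other 3 beta subunits averaged under 3 TPM in either group.

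**Figure D1:**
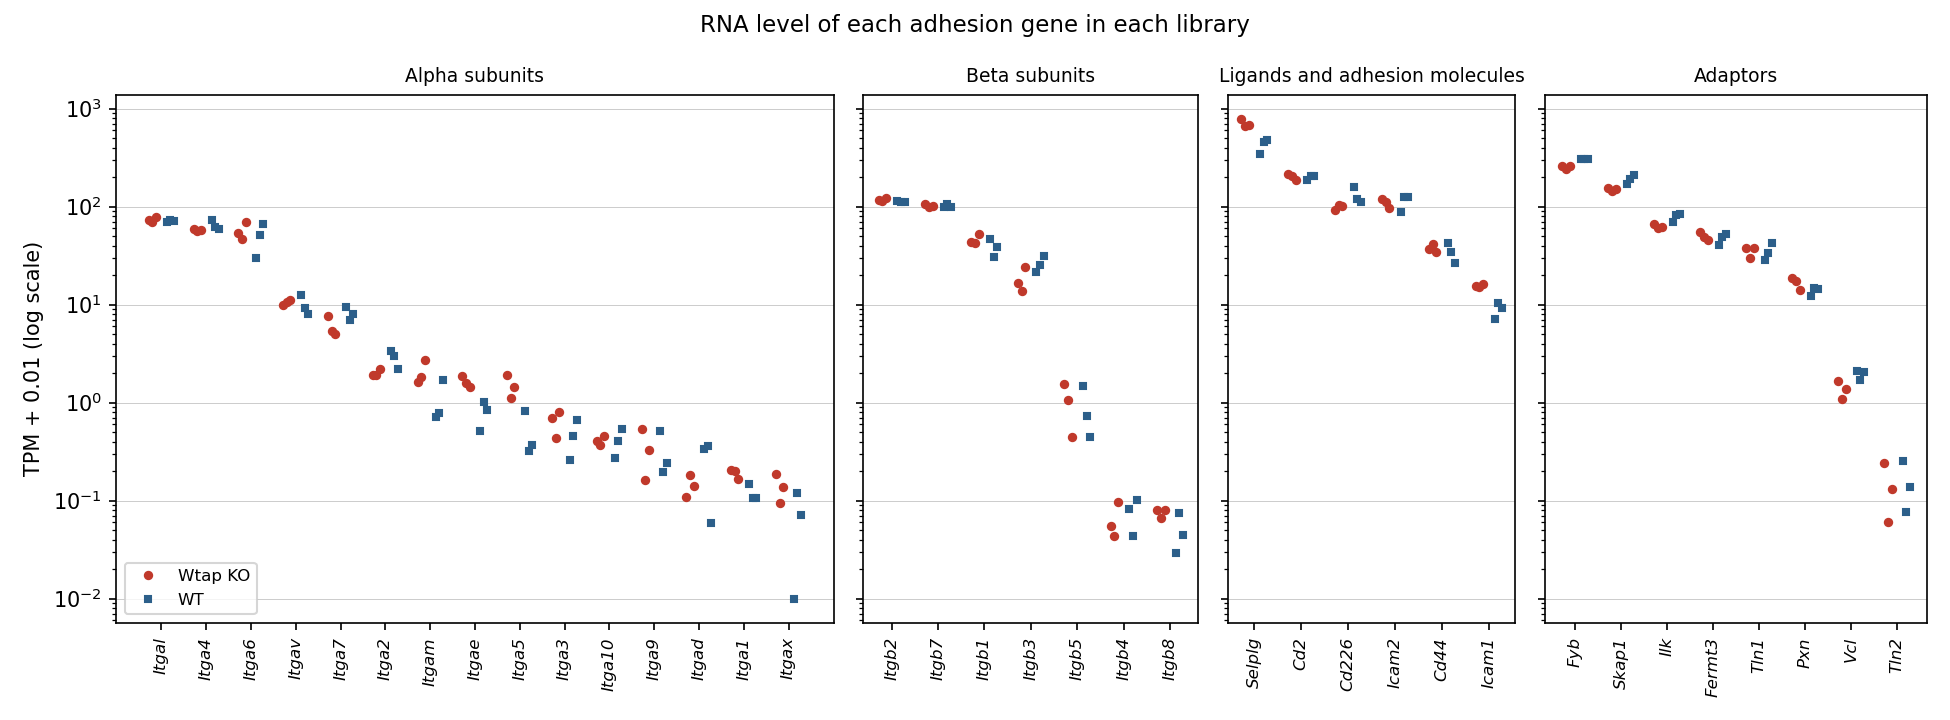
TPM of each of the 36 adhesion genes in each library on a log axis, after adding 0.01, by role and from high to low. Red circles are the 3 Wtap KO libraries and blue squares the 3 WT libraries, with Wtap KO left of WT. Selplg stands highest, at 668 to 782 TPM in Wtap KO and 347 to 478 TPM in WT libraries, and Itgax was listed at 0 in WT library 1.

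Of the 36 genes, 34 passed the filter on low counts and 5 were higher in Wtap KO cells: the alpha subunits Itga5, Itgae and Itgam, the integrin ligand Icam1, and Selplg, the protein backbone of PSGL-1. This was 14.7% of the 34 tested, against 5.75% of all 17610 tested genes that were higher by the same test. At an unadjusted p under 0.05 in edgeR, 6 of the 34 were higher (17.6%), close to the 14.0% of all tested genes. DESeq2 called 6 higher, against 8.01% of the genes it gave an adjusted p. No adhesion gene was called lower by edgeR, against 3.49% of all tested genes. In that direction 8 of the 34 (23.5%) had an unadjusted p under 0.05 in edgeR, against 12.2% of all tested genes, and DESeq2 called 6 (17.6%), against 7.24% of the 16921 genes it gave an adjusted p. The median log2 fold change of the 34 genes was 0.03, against -0.00058 over all tested genes. Groups did not overlap in CPM for 6 genes that were higher in Wtap KO libraries (17.6%, against 17.2% of all tested genes) and for 7 that were lower (20.6%, against 15.5% of all tested genes), so the first share was close to the background. In whole-culture RNA of this kind, a lower share of cells of a type and less RNA per cell cannot be told apart.

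All 5 calls rested on having 3 Wtap KO libraries. Without Wtap KO library 1, 2 or 3 in turn, none of the 5 was called, while 5, 1 and 3 of them were called without WT library 1, 2 or 3. The 1 call that was kept without WT library 2 was Icam1, and Itga1 was called there in addition. The direction of the 5 genes was the same in each of these fits. Over all genes, 1012 were called higher with all 6 libraries. That count was 283, 263 and 475, of 18148, 18132 and 18193 tested, without Wtap KO library 1, 2 or 3. It was 1361, 397 and 1153 without WT library 1, 2 or 3. The loss of calls without a Wtap KO library was therefore not particular to the adhesion genes. A gene that did not pass is not shown to be equal in both groups.

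**Figure D2:**
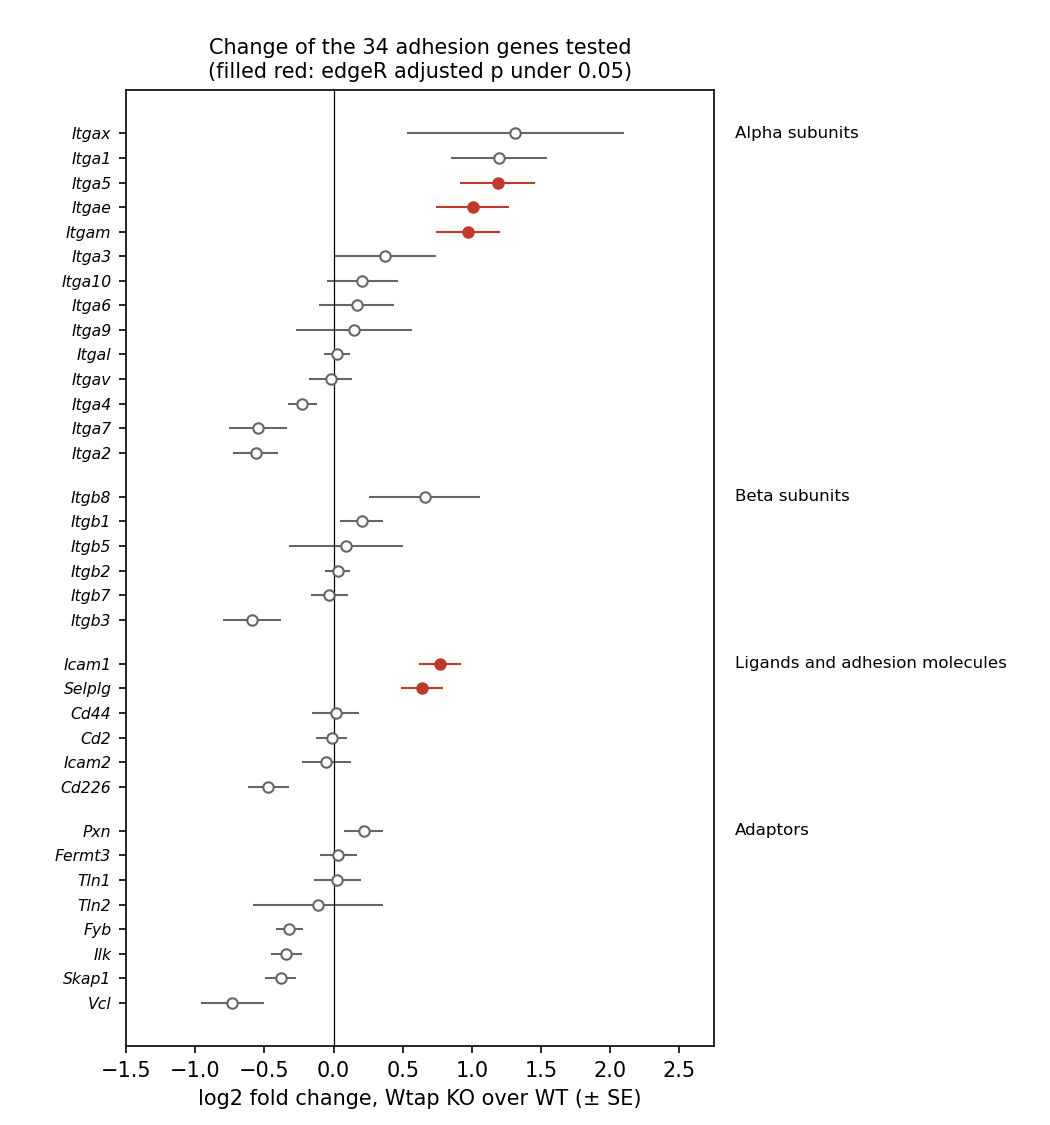
Log2 fold change of Wtap KO over WT with its standard error for the 34 tested adhesion genes, by role. Filled red points have an edgeR adjusted p under 0.05 and open points do not. The 5 filled points lie between 0.64 (Selplg) and 1.19 (Itga5), while the adaptors run from -0.73 (Vcl) to 0.22 (Pxn).

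The stretches just before the start sites of the 3 called genes that have a promoter entry in RefSeq (GRCm38.p6) are shown because these genes moved in the same direction. Of the 36 genes, 21 had an entry, and Itgae and Selplg had none. Each line gives the 250 bases before the RefSeq start on the strand of the gene, from chr9:21015690-21015939 (plus strand) for Icam1, chr15:103366792-103367041 (minus strand) for Itga5 and chr7:128062390-128062639 (plus strand) for Itgam. Capitals mark the NF-kappaB-like motif GGAANNTCC.
Icam1: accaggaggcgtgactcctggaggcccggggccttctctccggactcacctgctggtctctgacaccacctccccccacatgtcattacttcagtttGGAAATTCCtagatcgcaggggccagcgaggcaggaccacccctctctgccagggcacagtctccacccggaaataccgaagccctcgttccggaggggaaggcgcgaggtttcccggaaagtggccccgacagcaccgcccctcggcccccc
Itga5: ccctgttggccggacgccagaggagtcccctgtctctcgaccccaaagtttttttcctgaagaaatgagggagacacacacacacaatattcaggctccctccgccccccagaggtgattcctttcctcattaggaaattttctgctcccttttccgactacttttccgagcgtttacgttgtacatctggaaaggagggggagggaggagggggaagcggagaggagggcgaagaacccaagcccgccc
Itgam: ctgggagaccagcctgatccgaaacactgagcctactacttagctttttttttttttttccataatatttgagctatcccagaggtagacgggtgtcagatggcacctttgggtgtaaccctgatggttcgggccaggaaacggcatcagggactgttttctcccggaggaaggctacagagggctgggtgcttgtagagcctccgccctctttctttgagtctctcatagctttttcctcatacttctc
The Icam1 stretch held 1 match, GGAAATTCC, at positions -153 to -145 relative to the start, while Itga5 and Itgam held none. Both strands of the 250 bases before the start were searched, and the Icam1 letters fit GGAANNTCC on both strands. The same window held GGAANNTCC in 3.59% of all 32851 RefSeq promoters and in 1 of the 23 entries of the adhesion genes. The GC-rich box GGGCGG was present in 10 of the 23 entries, Icam1, Itga5 and Itgam included, against 32.7% of all promoters. The purine-rich motif GAGGAA, which shares the letters GGAA with GGAANNTCC, was present in 8 of the 23, Itga5 and Itgam included but not Icam1, against 23.3% of all. TGANTCA, the AP-1 motif, was found in Itgax alone (6.75% of all promoters), and TATAAA in none of the 23 (12.4% of all). These matches describe letters only.

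Of the 14 alpha subunits tested, Itga5, Itgae and Itgam rose in Wtap KO cells, and all 3 were low in both groups. Over all tested genes, edgeR called 5.75% higher. The median log2 fold change of the 14 was 0.19. Itga5 (ENSMUSG00000000555, chr15:103344286-103366763 in GRCm38, minus strand) encodes the alpha chain of the classical fibronectin receptor. It had 4.51, 3.96 and 4.45 CPM in Wtap KO libraries, against 2.71, 1.34 and 1.61 CPM in WT libraries. Every Wtap KO library was above every WT library, and WT library 1 was the highest of its group. The means were 4.31 ± 0.302 CPM in Wtap KO and 1.89 ± 0.723 CPM in WT cells (SD, n = 3 each), a 2.27-fold difference (log2 fold change 1.19 ± 0.27 SE, adjusted p = 0.0314, edgeR). The adjusted p by edgeR was 0.124, 0.102 and 0.0957 without Wtap KO library 1, 2 or 3, 0.0984 without WT library 2, 0.0527 without WT library 3, and 0.0779 with a correction for GC content.

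Itgae (ENSMUSG00000005947, chr11:73090583-73147446, plus strand) encodes CD103, which pairs with the beta 7 chain, binds E-cadherin and marks T cells resident in epithelia as well as some dendritic cells. Its level was 6.82, 6.10 and 5.18 CPM in Wtap KO libraries, against 1.91, 3.84 and 3.27 CPM in WT libraries. The groups did not overlap, and WT library 1 was the lowest. The means were 6.03 ± 0.821 CPM in Wtap KO and 3.01 ± 0.996 CPM in WT cells (SD, n = 3 each), 2.01-fold apart (log2 fold change 1.00 ± 0.26 SE, adjusted p = 0.0477, edgeR). This was the weakest of the 5 calls: without 1 library at a time it passed only without WT library 1, with an adjusted p by edgeR of 0.178, 0.155 and 0.0922 without Wtap KO library 1, 2 or 3, 0.0659 without WT library 2 and 0.0546 without WT library 3. It also missed the threshold under upper-quartile scaling (0.0504), a correction for gene length (0.0519), length-scaled counts (0.0595) and limma on TPM (0.0553 and 0.0666).

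Itgam (ENSMUSG00000030786, chr7:128062640-128118491, plus strand) encodes CD11b, the alpha chain of the complement receptor Mac-1, best known from myeloid and NK cells and also found on some activated T cells. Wtap KO libraries had 6.11, 6.96 and 9.23 CPM, against 3.20, 3.34 and 4.83 CPM in WT libraries. Library 3 was the highest within each group, and in CPM the groups did not overlap. The means were 7.43 ± 1.61 CPM in Wtap KO and 3.79 ± 0.899 CPM in WT cells (SD, n = 3 each), 1.96-fold apart (log2 fold change 0.97 ± 0.23 SE, adjusted p = 0.0353, edgeR). In TPM, which also depends on how reads were split between transcripts of different length, Wtap KO libraries had 1.62, 1.82 and 2.72 TPM, against 0.707, 0.770 and 1.69 TPM in WT libraries, so WT library 3 lay within the Wtap KO range. The adjusted p was 0.142 and 0.137 by limma on TPM, 0.169 with length-scaled counts, 0.0762, 0.112 and 0.114 by edgeR without Wtap KO library 1, 2 or 3, and 0.123 without WT library 2. The gene Gm49368, which shares exons with Itgam on the same strand, had 0, 1.0 and 2.6 counts in Wtap KO libraries and 0 in WT libraries, and adding its counts to Itgam left the log2 fold change at 0.97.

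Markers of other cell types that can carry CD11b or CD103 also moved in part. The 7 dendritic cell markers summed to 9.11 to 12.8 TPM in Wtap KO libraries, against 1.72 to 4.28 TPM in WT libraries, without overlap. Batf3 was the only 1 of the 4 tested that was called, and Cd209a was at 0 in all libraries. Batf3 alone, a factor of dendritic cells that Th1 cells also make, accounted for 8.39 to 11.9 TPM in Wtap KO and 1.18 to 3.86 TPM in WT libraries. The 7 markers of monocytes and macrophages summed to 2.20 to 4.84 TPM in Wtap KO and 3.03 to 4.35 TPM in WT libraries, with 0 of 2 tested called by edgeR (1 at an unadjusted p under 0.05, lower) or DESeq2. The 5 NK cell markers summed to 2.52 to 3.62 TPM in Wtap KO and 1.17 to 2.56 TPM in WT libraries, with 0 of 3 called by edgeR (1 at an unadjusted p under 0.05) and 1 by DESeq2. The 5 granulocyte markers summed to 0.101 to 0.324 TPM in Wtap KO and 0.0596 to 0.0790 TPM in WT libraries, with S100a9 at 0 in all libraries and none tested. The 2 CD8 T cell markers, cells that also use CD103, summed to 11.4 to 13.9 TPM in Wtap KO and 7.18 to 7.79 TPM in WT libraries, and Cd8b1 was called higher. Cd8b1 alone accounted for 10.3 to 13.4 TPM in Wtap KO and 6.84 to 7.73 TPM in WT libraries. Cd8a had 0.366 to 1.06 TPM in Wtap KO and 0.0595 to 0.490 TPM in WT libraries and was not called (adjusted p = 0.282, edgeR). The 6 B cell markers summed to 3.38 to 5.57 TPM in Wtap KO and 2.06 to 3.73 TPM in WT libraries, and the 5 markers of mast cells and basophils to 1.76 to 4.73 TPM in Wtap KO and 0.727 to 2.89 TPM in WT libraries. In each of these 2 lists 0 of 4 tested were called by edgeR or DESeq2, with 1 at an unadjusted p under 0.05. The part of these cells in the values of Itgae and Itgam was not tested.

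The 2 alpha subunits best known from T cells, Itgal and Itga4, were not called. Itgal encodes the alpha chain of LFA-1, the main integrin of the immune synapse, and had 72.1, 69.1 and 78.9 TPM in Wtap KO libraries, against 69.0, 72.2 and 71.1 TPM in WT libraries. The groups overlapped, and the log2 fold change was 0.02 ± 0.09 SE (adjusted p = 0.903, edgeR). Itga4, the alpha chain of VLA-4 and of the gut-homing receptor, had 58.6, 55.8 and 57.7 TPM in Wtap KO libraries, against 73.7, 61.3 and 59.1 TPM in WT libraries. Each Wtap KO value lay below each WT value, yet WT libraries 2 and 3 were close to the Wtap KO range, and the gene did not pass (log2 fold change -0.23 ± 0.11 SE, adjusted p = 0.220, edgeR). Itga6, a laminin receptor subunit, varied more between WT libraries than between groups, with 53.8, 47.0 and 68.7 TPM in Wtap KO libraries and 29.8, 51.0 and 65.9 TPM in WT libraries. Itgav, the alpha chain of the receptors for vitronectin and latent TGF-beta, averaged 10.6 ± 0.645 TPM in Wtap KO and 9.88 ± 2.32 TPM in WT cells (SD, n = 3 each), with a log2 fold change of -0.02 ± 0.16 SE.

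Both collagen-binding subunits Itga1 and Itga2 lay near the threshold on opposite sides of 0. Itga1 had 1.78, 1.57 and 1.33 CPM in Wtap KO libraries, against 0.497, 1.06 and 0.491 CPM in WT libraries (log2 fold change 1.20 ± 0.35 SE, adjusted p = 0.0648, edgeR). Itga2 had 13.2, 13.7 and 15.0 CPM in Wtap KO libraries, against 24.0, 21.4 and 16.3 CPM in WT libraries (log2 fold change -0.56 ± 0.16 SE, adjusted p = 0.0660, edgeR). The groups of both genes did not overlap. Both genes passed with DESeq2 (adjusted p = 0.0326 for Itga1 and 0.0150 for Itga2) and with no filter on low counts (0.0272 for Itga1 and 0.0423 for Itga2). The 2 genes are neighbours on chromosome 13, both on the minus strand, with Itga2 at chr13:114833081-114932100 and Itga1 at chr13:114953096-115101964. Itga7, a laminin receptor subunit, had a log2 fold change of -0.55 ± 0.21 SE (adjusted p = 0.138, edgeR), from 18.3 ± 4.77 CPM in Wtap KO and 26.7 ± 5.19 CPM in WT cells (SD, n = 3 each).

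The remaining alpha subunits averaged under 1 TPM in either group. Itga3, Itga9 and Itga10 had log2 fold changes of 0.37, 0.15 and 0.21 with standard errors of 0.37, 0.42 and 0.26. Itgax, which encodes CD11c, was counted 26, 14 and 17 times in Wtap KO libraries, against 0, 14 and 5 times in WT libraries, and did not pass (adjusted p = 0.334, edgeR). Itgad had 1.9 to 5 counts in Wtap KO and 2 to 4 counts in WT libraries and was not tested. The leukocyte genes Itgal, Itgam, Itgax and Itgad lie on chromosome 7, the last 3 side by side between positions 128062640 and 128223816, but only Itgam of this group passed the test.

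The beta subunits did not include a called gene: 0 of the 6 tested passed edgeR, 1 had an unadjusted p under 0.05, and DESeq2 called 1, Itgb3 in both cases. Over all tested genes, edgeR called 5.75% higher and 3.49% lower, so 0 of 6 cannot be told apart from the background. In the direction of Itgb3, 12.2% of all tested genes were lower at an unadjusted p under 0.05 in edgeR. DESeq2 called 7.24% lower of the genes it gave an adjusted p. Their median log2 fold change was 0.06. Itgb2, the common chain of the leukocyte integrins, had 116, 115 and 123 TPM in Wtap KO libraries, against 113, 111 and 111 TPM in WT libraries. The TPM values of Wtap KO were slightly above those of WT, while the CPM ranges of the groups overlapped (log2 fold change 0.03 ± 0.09 SE, adjusted p = 0.871, edgeR). Itgb7, the partner of Itga4 and Itgae, had 106, 97.8 and 101 TPM in Wtap KO libraries, against 98.1, 105 and 98.7 TPM in WT libraries, with overlapping groups (log2 fold change -0.03 ± 0.13 SE, adjusted p = 0.920, edgeR). Itgb1, the partner of most alpha subunits, had 43.4, 42.0 and 52.4 TPM in Wtap KO libraries, against 47.1, 30.2 and 38.3 TPM in WT libraries, again with overlap (log2 fold change 0.20 ± 0.15 SE, adjusted p = 0.449, edgeR).

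Itgb3, which pairs with Itgav, had 92.1, 80.2 and 133 CPM in Wtap KO libraries, against 125, 148 and 188 CPM in WT libraries. Wtap KO library 3 reached into the WT range, and the gene did not pass in edgeR (log2 fold change -0.59 ± 0.21 SE, adjusted p = 0.114), although DESeq2 gave an adjusted p of 0.0444. The 5 markers of megakaryocytes and platelets, cells known for Itgb3, summed to 6.47 to 16.2 TPM in Wtap KO and 3.34 to 12.6 TPM in WT libraries, with 0 of 4 tested called by edgeR or DESeq2 and 0 at an unadjusted p under 0.05, and their part in the Itgb3 values was not tested. Itgb5 and Itgb8 had log2 fold changes of 0.09 ± 0.41 SE and 0.66 ± 0.40 SE. Itgb4 had 5 to 8 counts in Wtap KO and 6 to 11 counts in WT libraries and was not tested.

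Because an integrin reaches the surface as a pair, the RNA of alpha subunits was also set against that of their beta partners within each library, as the log2 of the TPM ratio. Of 16 known pairs, 9 had both genes at 1 TPM or more on average. Itgae relative to Itgb7 averaged -5.97 ± 0.16 in Wtap KO and -7.07 ± 0.48 in WT libraries (SD, n = 3 each), a difference of 1.09, and the groups did not overlap. Itga4 relative to Itgb1 averaged 0.33 ± 0.16 in Wtap KO and 0.76 ± 0.22 in WT libraries, a difference of -0.44 without overlap. Itga2 relative to Itgb1 differed by -0.76 and Itga4 relative to Itgb7 by -0.18, both without overlap. For Itga4 and Itgb7 the groups overlapped with estimated counts in place of TPM (p = 0.5, exact permutation test), and the difference was -0.06 without WT library 1. These 4 differences had the smallest p that 3 against 3 libraries allow (0.1, exact two-sided permutation test, 0.225 after adjustment over the 9 pairs), so the design cannot place them past 0.05. For LFA-1 the ratio of Itgal to Itgb2 was -0.69 ± 0.05 in Wtap KO and -0.66 ± 0.04 in WT libraries (difference -0.03, p = 0.5, exact permutation test). The TPM ratios of Itgam to Itgb2 (difference 0.96), Itgav to Itgb3 (0.67), Itgav to Itgb1 (-0.15) and Itga6 to Itgb1 (-0.0039) overlapped between the groups. For Itgam and Itgb2 the groups did not overlap with estimated counts in place of TPM (difference 0.94, p = 0.1, exact permutation test). In every library Itgae was far below Itgb7 and Itgam far below Itgb2.

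**Figure D3:**
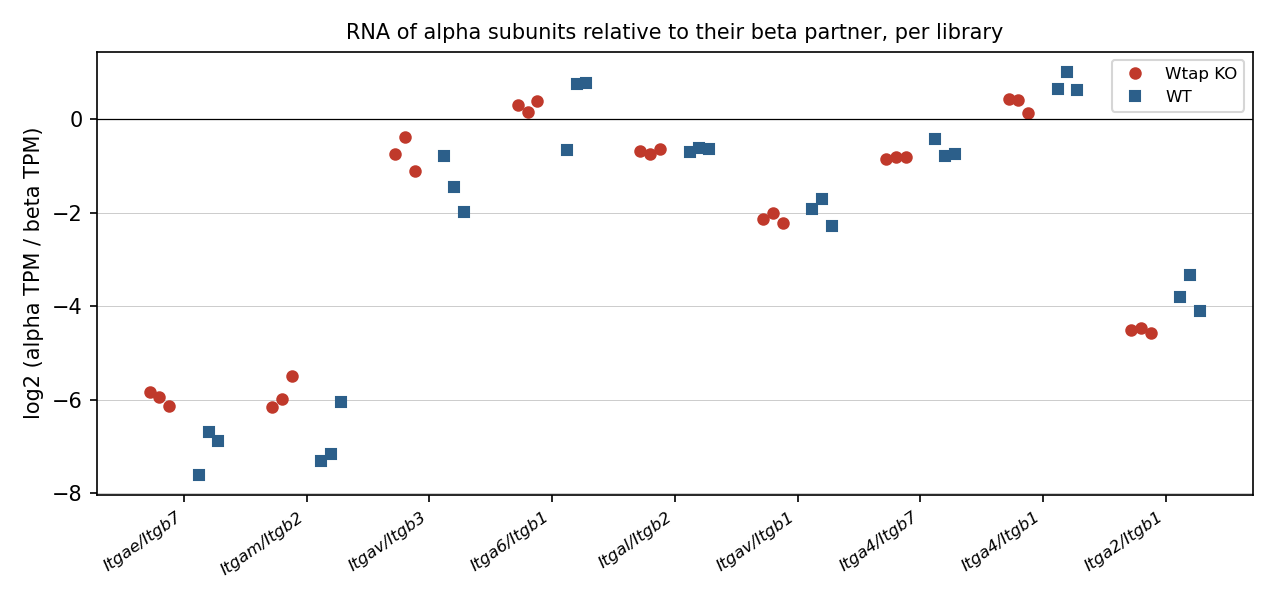
Log2 ratio of alpha to beta subunit TPM in each library for the 9 pairs, ordered by the difference of Wtap KO minus WT from high to low. Red circles are Wtap KO and blue squares WT libraries. Itgae/Itgb7 is higher in all 3 Wtap KO libraries, Itga4/Itgb7, Itga4/Itgb1 and Itga2/Itgb1 are lower in all 3, and Itgal/Itgb2 lies between -0.73 and -0.62 in all 6.

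Among the 6 ligands and other adhesion molecules, Icam1 and Selplg rose in Wtap KO cells and the other 4 were not called. Over all tested genes, edgeR called 5.75% higher and 3.49% lower. Icam1 (ENSMUSG00000037405, chr9:21015985-21028817, plus strand) encodes the counter-receptor of LFA-1 and Mac-1 and is induced on activated lymphocytes. It had 36.8, 37.6 and 37.5 CPM in Wtap KO libraries, against 17.1, 25.3 and 23.2 CPM in WT libraries. The 3 Wtap KO values were almost equal and each lay above every WT value. The means were 37.3 ± 0.437 CPM in Wtap KO and 21.9 ± 4.22 CPM in WT cells (SD, n = 3 each), 1.71-fold apart (log2 fold change 0.77 ± 0.15 SE, adjusted p = 0.0186, edgeR). Icam1 passed in all 11 other settings that kept the 6 libraries, and its adjusted p by edgeR was 0.0761, 0.0837 and 0.0646 without Wtap KO library 1, 2 or 3. The transcript Icam1-201 held 95.2 ± 1.35% of its counts in Wtap KO and 94.7 ± 2.72% in WT libraries. The 6 markers of fibroblasts and endothelium, which also make ICAM-1, summed to 0.847 to 1.13 TPM in Wtap KO and 0.126 to 0.307 TPM in WT libraries, with Cdh5 and Kdr called higher of 3 tested, and their part in the Icam1 values was not tested.

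Selplg (ENSMUSG00000048163, chr5:113818536-113832644, minus strand) encodes the mucin PSGL-1, the ligand of P-selectin, which Th1 cells use to roll on inflamed vessels. It was the most abundant RNA of the 36 genes in both groups. Wtap KO libraries had 1145, 1009 and 937 CPM, against 521, 699 and 761 CPM in WT libraries, and the groups did not overlap. The means were 1030.2 ± 105 CPM in Wtap KO and 661 ± 125 CPM in WT cells (SD, n = 3 each), 1.56-fold apart (log2 fold change 0.64 ± 0.15 SE, adjusted p = 0.0342, edgeR). In TPM it had 782, 668 and 676 in Wtap KO libraries, against 347, 456 and 478 in WT libraries. The adjusted p by edgeR was 0.136, 0.113 and 0.0692 without Wtap KO library 1, 2 or 3 and 0.0922 without WT library 2. The main transcript Selplg-201 held 91.2 ± 1.26% of the counts in Wtap KO and 92.3 ± 0.181% in WT libraries.

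**Figure D4:**
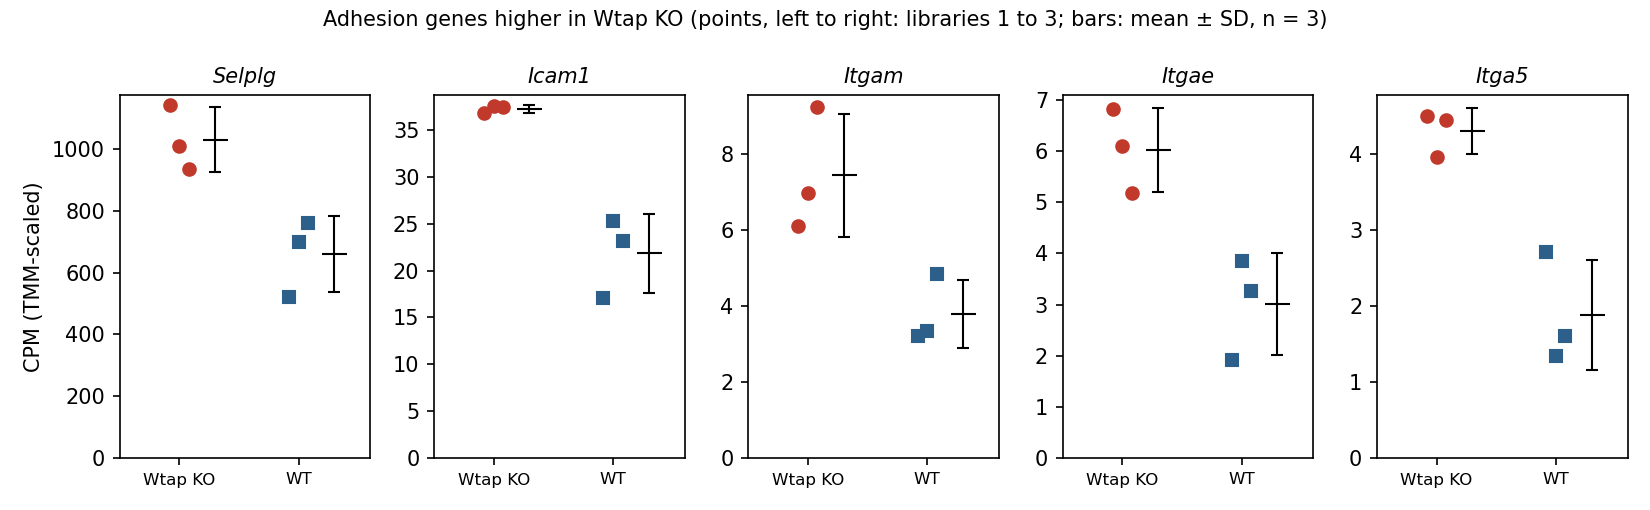
CPM of the 5 adhesion genes called higher, with 1 point per library (libraries 1 to 3 from left to right) and the mean ± SD of n = 3 beside them, on linear axes that start at 0. Red circles are Wtap KO and blue squares WT libraries. In each panel all 3 Wtap KO points lie above all 3 WT points, with Icam1 at 36.8 to 37.6 CPM in Wtap KO against 17.1 to 25.3 CPM in WT.

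Cd226 encodes DNAM-1, a costimulatory adhesion receptor that associates with LFA-1. It had 92.7, 105 and 101 TPM in Wtap KO libraries, against 157, 120.4 and 112 TPM in WT libraries. Each Wtap KO value was below each WT value and WT library 1 stood highest, but the gene did not pass (log2 fold change -0.47 ± 0.15 SE, adjusted p = 0.0819, edgeR). It was called lower by DESeq2 (adjusted p = 0.0340) and by edgeR with no filter on low counts (0.0360). Cd2, a receptor for CD48 in mice that steadies the contact with antigen-presenting cells, had 217, 205 and 185 TPM in Wtap KO libraries, against 185, 206 and 203 TPM in WT libraries (log2 fold change -0.01 ± 0.11 SE). Icam2, a further ligand of LFA-1, had 118, 110.1 and 96.1 TPM in Wtap KO libraries, against 88.9, 125 and 125 TPM in WT libraries (log2 fold change -0.05 ± 0.18 SE). Cd44, the hyaluronan receptor that marks activated T cells, averaged 37.5 ± 3.57 TPM in Wtap KO and 34.6 ± 8.08 TPM in WT cells (SD, n = 3 each; log2 fold change 0.02 ± 0.17 SE). The groups overlapped for Cd2, Icam2 and Cd44.

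Of the 8 adaptors, 0 passed edgeR in either direction, 4 had an unadjusted p under 0.05 with lower values in Wtap KO, and DESeq2 called 3 of those lower. Their median log2 fold change was -0.21, against -0.00058 over all tested genes. The 4 with lower values, Skap1, Fyb, Vcl and Ilk, did not overlap between the groups. Over all tested genes, 12.2% were lower at an unadjusted p under 0.05 in edgeR and 15.5% were lower without overlap. Of the genes that DESeq2 gave an adjusted p, it called 7.24% lower. Skap1, which holds ADAP at the membrane, had 155, 145 and 151 TPM in Wtap KO libraries, against 170.0, 192 and 209.8 TPM in WT libraries (log2 fold change -0.38 ± 0.11 SE, adjusted p = 0.0646, edgeR). Fyb, the gene of ADAP itself, had 257, 239 and 261 TPM in Wtap KO libraries, against 304, 303 and 303 TPM in WT libraries (log2 fold change -0.32 ± 0.10 SE, adjusted p = 0.0818, edgeR). These are the partners of the ADAP and SKAP module that links the T cell receptor to LFA-1, and for both each Wtap KO value was below each WT value.

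Vcl, which encodes vinculin of the actin link, had 4.72, 4.18 and 3.74 CPM in Wtap KO libraries, against 8.89, 5.001 and 7.06 CPM in WT libraries (log2 fold change -0.73 ± 0.23 SE, adjusted p = 0.0809, edgeR). Ilk, the pseudokinase that joins beta tails to parvin, had 69.6, 65.8 and 64.3 CPM in Wtap KO libraries, against 74.3, 84.8 and 93.7 CPM in WT libraries (log2 fold change -0.34 ± 0.11 SE, adjusted p = 0.0959, edgeR). Ilk shares exon sequence with Taf10 and Rrp8 on the opposite strand, and the sources used here do not name the strand setting of the counting, so its values are uncertain. The same holds for Vcl, which had 160.1 to 322 counts per library: Ap3m1 overlaps it on the opposite strand and had 3354, 4242 and 4517 counts in Wtap KO libraries, against 5381, 4092 and 4146 counts in WT libraries. Both genes were highest in WT library 1. DESeq2 called Skap1, Fyb and Vcl lower, with adjusted p of 0.0202, 0.0310 and 0.0233, and edgeR with a correction for GC content called Skap1 and Ilk lower (0.0156 and 0.0283). The direct activators of integrins stayed close to 0: Tln1 (talin) had a log2 fold change of 0.03 ± 0.17 SE and Fermt3 (kindlin of blood cells) of 0.03 ± 0.13 SE. Tln1 averaged 35.3 ± 4.52 TPM in Wtap KO and 34.6 ± 6.89 TPM in WT cells, and Fermt3 49.5 ± 4.66 TPM in Wtap KO and 47.0 ± 6.13 TPM in WT cells (SD, n = 3 each). Pxn (paxillin) and the low Tln2 had log2 fold changes of 0.22 ± 0.14 SE and -0.11 ± 0.47 SE.

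Transcript shares within the adhesion genes were tested for 94 transcripts of 22 genes. None was called by limma on the log2 ratio of each transcript's counts to those of the gene's other transcripts, against 0.277% of 32459 transcripts of all genes, and 9 of the 94 had an unadjusted p under 0.05, against 10.3% of all tested transcripts. edgeR with the gene total as offset called 0 of the 94, against 112 of the 32459 transcripts of all genes. It gave 13 of the 94 at an unadjusted p under 0.05, against 10.3% of all tested transcripts. The smallest adjusted p was that of Skap1-202, a short 3-exon transcript, with 3.15 ± 0.430% of Skap1 counts in Wtap KO and 7.73 ± 2.00% in WT libraries (SD, n = 3 each; log2 ratio difference -1.34, adjusted p = 0.215, limma). The full-length Skap1-201 held 53.2 ± 2.39% in Wtap KO and 56.9 ± 3.26% in WT libraries. Transcripts below the filter of 0.5 TPM were not tested, and Itga10-201, a 30-exon coding transcript, was among them. It held 100% of Itga10 counts in each Wtap KO library, against 0 to 5.3% in WT libraries. Its level was 0.354 to 0.448 TPM in Wtap KO and 0 to 0.0226 TPM in WT libraries. Whether its share differed between the groups was therefore not tested.

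Several adhesion genes had their reads assigned to transcripts other than the full-length one in both groups. For Itga6, the 3-exon transcript Itga6-203 held 49.7 ± 1.90% of the counts in Wtap KO and 52.3 ± 1.39% in WT libraries, and the 26-exon coding transcript Itga6-201 held 46.3 ± 1.20% in Wtap KO and 42.4 ± 1.49% in WT libraries. Their last exons start at the same base, chr2:71855854-71858416 in Itga6-203 and chr2:71855854-71856758 in Itga6-201, and differ in where they end. For Itgb2, the transcript Itgb2-204, annotated for nonsense-mediated decay, held 73.5 ± 5.39% in Wtap KO and 72.7 ± 4.78% in WT libraries, and the coding Itgb2-201 held 11.7 ± 0.266% in Wtap KO and 11.3 ± 0.914% in WT libraries. Itgb2-204 lacks the 245-base exon chr10:77559479-77559723 of Itgb2-201. Its last exon also ends elsewhere, chr10:77565178-77565708 in Itgb2-204 and chr10:77565178-77565686 in Itgb2-201. The shares of these 2 transcripts therefore do not measure the use of that 245-base exon alone. Cd44, whose variable exons are spliced differently in activated lymphocytes, was mostly Cd44-207, with 75.1 ± 2.88% in Wtap KO and 79.7 ± 2.55% in WT libraries. Cd44-203 held 15.9 ± 2.16% in Wtap KO and 12.3 ± 1.07% in WT libraries (adjusted p = 0.550, limma). Their last exons also differ in extent, chr2:102811141-102814337 in Cd44-207 and chr2:102812547-102814337 in Cd44-203. The shares of these transcripts therefore do not measure the use of variable exons alone. The deposited tables do not give the error of the split between transcripts.

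The pentamer GGACT, a common form of the sequence around m6A sites, was counted in the most abundant transcript of each gene as a description of the RNA. The 34 tested adhesion genes had a median of 1.34 per kb, against 1.01 per kb over 12923 tested protein-coding genes. The 5 called genes ranged from 0.539 per kb in Selplg to 2.60 per kb in Itgae, with 1.97 in Icam1, 1.83 in Itga5 and 0.902 in Itgam. No m6A measurement was used here.

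Other genes of adhesion were followed in 3 lists. Of 59 other integrin activation and adhesome genes, 51 were tested, 1 was higher (1.96%) and 5 were lower (9.80%) in Wtap KO cells, with a median log2 fold change of 0.03. Over all tested genes 5.75% were higher and 3.49% lower. DESeq2 called 3 of the list higher and 7 lower, against 8.01% and 7.24% of all genes it gave an adjusted p. The lower genes were small GTPases and 1 adaptor. Rap1b, the GTPase that recruits talin to integrins, averaged 519 ± 57.6 CPM in Wtap KO and 817 ± 129.7 CPM in WT cells (SD, n = 3 each; log2 fold change -0.65 ± 0.14 SE, adjusted p = 0.0240, edgeR). Cdc42 averaged 743 ± 72.6 CPM in Wtap KO and 1067 ± 107 CPM in WT cells (adjusted p = 0.0288, edgeR), and Rhoa 317 ± 13.8 CPM in Wtap KO and 420.3 ± 21.1 CPM in WT cells (adjusted p = 0.0328, edgeR). Lims1, which encodes the ILK partner PINCH, averaged 43.3 ± 5.39 CPM in Wtap KO and 67.3 ± 9.15 CPM in WT cells (adjusted p = 0.0265, edgeR). The fifth lower gene was Rac1, named for completeness after its value was seen. The higher gene was Arhgef7, an exchange factor for Rac and Cdc42 at adhesions, with 42.7 ± 2.36 CPM in Wtap KO and 27.6 ± 3.93 CPM in WT cells (adjusted p = 0.0228, edgeR). Without 1 library at a time, Arhgef7, Rap1b, Lims1 and Cdc42 were lost without each Wtap KO library and without WT library 2, and Rhoa and Rac1 also without WT library 3, with adjusted p up to 0.138.

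Of 55 other leukocyte adhesion molecules, 44 were tested, 2 were higher (4.55%) and 4 were lower (9.09%), with a median log2 fold change of 0.17. Over all tested genes 5.75% were higher and 3.49% lower. The balance of directions depended on the threshold. DESeq2 called 7 of the list higher and 6 lower, against 8.01% and 7.24% of all genes it gave an adjusted p. At an unadjusted p under 0.05 in edgeR, 13 were higher and 7 lower, against 14.0% and 12.2% of all tested genes. The lower genes were Cd9 and Cd53, 2 tetraspanins that organise integrins in the membrane, Spn, the gene of the mucin CD43, and Jam3. Cd9 averaged 80.2 ± 4.22 CPM in Wtap KO and 128 ± 11.1 CPM in WT cells (log2 fold change -0.67 ± 0.11 SE, adjusted p = 0.00817, edgeR). Spn averaged 225 ± 17.0 CPM in Wtap KO and 355 ± 34.4 CPM in WT cells (log2 fold change -0.66 ± 0.11 SE, adjusted p = 0.0107, edgeR), while Selplg, the other large mucin of T cells, was higher. Cd53 averaged 1383 ± 153 CPM in Wtap KO and 1948 ± 197 CPM in WT cells (adjusted p = 0.0389, edgeR). The higher genes were low: Madcam1, the mucosal ligand of the Itga4 and Itgb7 pair, had 11, 12 and 16 counts in Wtap KO libraries and 0 in all 3 WT libraries, at least 10.9-fold higher against a floor of 3 counts over the WT group. Jam3, a junctional ligand of Mac-1, averaged 0.333 ± 0.0778 CPM in Wtap KO and 0.954 ± 0.222 CPM in WT cells (adjusted p = 0.0248, edgeR). The gene Gm48796 overlaps Jam3 on the opposite strand and had 103.2 to 133 counts in Wtap KO libraries, against 247 to 353 counts in WT libraries, so the Jam3 values are uncertain too. Cadm3 averaged 3.54 ± 0.593 CPM in Wtap KO and 0.724 ± 0.414 CPM in WT cells, and it shares exons on the same strand with Ackr1, which had 69.4 to 104.9 counts in Wtap KO and 5.4 to 14 counts in WT libraries. Jam3 was lost without each Wtap KO library (adjusted p up to 0.113), Cd53 without each Wtap KO library and without WT library 2 (up to 0.162), Cd9 without Wtap KO library 1 or 2 (0.0511 and 0.0510), Spn without Wtap KO library 2 (0.0668) and Madcam1 without Wtap KO library 1 (0.0504).

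Of 50 extracellular matrix proteins and soluble integrin ligands, 27 were tested, 2 were higher (7.41%) and 0 were lower by edgeR (2 at an unadjusted p under 0.05) or DESeq2, with a median log2 fold change of 0.10. Over all tested genes 5.75% were higher and 3.49% lower by edgeR. At an unadjusted p under 0.05 in edgeR, 8 of the list were higher and 2 lower, against 14.0% and 12.2% of all tested genes. DESeq2 called 4 higher and 0 lower, against 8.01% and 7.24% of all genes it gave an adjusted p. Ecm1, a secreted matrix protein known to affect the exit of helper T cells from lymph nodes in mice, had 214, 167 and 129 CPM in Wtap KO libraries, against 35.6, 44.2 and 33.8 CPM in WT libraries. The groups lay far apart, at 170.0 ± 42.5 CPM in Wtap KO and 37.9 ± 5.58 CPM in WT cells (SD, n = 3 each; log2 fold change 2.17 ± 0.19 SE, adjusted p = 0.00114, edgeR), and the call was kept without each of the 6 libraries. Tnc, the gene of tenascin C, averaged 0.497 ± 0.196 CPM in Wtap KO and 0.117 ± 0.0665 CPM in WT cells and was lost without each of the 6 libraries (adjusted p 0.0662 to 0.166). An opposite-strand gene, 8030451A03Rik, overlaps Tnc and had 25.4 to 35 counts in Wtap KO and 2 to 4 counts in WT libraries.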

How the data were processed

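The 3 Wtap KO and 3 WT libraries were made with the Lexogen SENSE kit and sequenced in paired reads (50 bp), per the labels. For every library the authors deposited the estimated count and the TPM value of 142647 transcripts. The tools and build named are kallisto 0.44.0, DESeq2 and GRCm38 (mm10), per the submitters' processing notes. kallisto splits reads that match several transcripts, so deposited estimated counts need not be whole, and the deposited TPM values are those counts per effective length, scaled to a fixed total. The sources used here name no annotation release, no strand setting and no role for DESeq2.

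Transcripts were matched by identifier to GENCODE M21 (GRCm38). Of them, 99.15% matched, and the 1218 unmatched were left out. Gene counts are sums of estimated counts, rounded. The test was edgeR's quasi-likelihood test (version 4.0.16 in R 4.3.3, robust, TMM, filterByExpr) on genotype alone, with Benjamini-Hochberg adjustment over 17610 genes and a threshold of 0.05. Values in CPM are scaled to the TMM-adjusted library size. The SE is the absolute log2 fold change over the square root of F. Transcript shares were tested with limma 3.58.1 on log2 ratios with a pseudocount of 0.5, for transcripts of at least 0.5 TPM in at least 3 libraries and genes with at least 30 counts in every library. Both tests were checked on simulated counts. The gene test recovered 19% of 100 genes with a simulated absolute log2 fold change of 0.58 and 52% of 100 at 1. The transcript test recovered 27% of 100 transcripts with a simulated absolute log2 ratio of 2 and 70% of 100 at 4. Alternatives were RLE and upper-quartile scaling, DESeq2 1.42.0, no filter, limma on log2(TPM + 1) and log2(TPM + 0.1), corrections for gene length and GC content, length-scaled counts, the replicate number as a block and fits without each library. Adding same-strand overlapping genes to the adhesion genes was chosen after seeing the data.

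The adhesion genes, the 3 lists of other adhesion genes and the markers of 10 cell types were chosen with earlier results of these data known. Values per library are given for every called adhesion gene and for each one averaging at least 100 TPM. Up to 4 called genes per further list and direction are named, by smallest adjusted p. The floor of 3 counts covers counting error only. Promoter sequences were taken from RefSeq.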

Additional observations from a re-analysis of the deposited data

How the results depend on the processing

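Against 5 adhesion genes called higher, 3 were called by limma on log2(TPM + 1), 3 by limma on log2(TPM + 0.1) and 3 with length-scaled counts, and 0 to 5 in the fits without 1 library. Against none called lower, 6 were called by DESeq2, 3 with no filter on low counts and 2 with the GC correction, and 0 to 3 without 1 library. Of the 29 tested adhesion genes that were not called, 8 passed in at least 1 setting and 14 had the opposite sign in at least 1. Over all genes, 1012 were higher and 614 lower, a share of 62.2% higher, and the lower count was 1225 by DESeq2, 332 by limma on log2(TPM + 1) and 337 on log2(TPM + 0.1). On those TPM scales 73.8% and 73.3% of the calls were higher. Without 1 library, 263 to 1361 genes were higher and 98 to 921 lower. For transcript shares the count over all genes was 90, and 47 to 146 without 1 library. The cause of these differences was not tested, other than that fits without a library had fewer samples. No value changed sign among called genes, and the 9 subunit ratios moved by less than the SD pooled over both groups in every setting tried. The WT spread makes up most of that SD for some pairs: Itga6 relative to Itgb1 had a difference of -0.48 without WT library 1, against an SD of 0.12 in Wtap KO and 0.83 in WT libraries.

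Replicate numbers recur in both groups, but same-numbered libraries did not deviate together: the correlations of their deviations were -0.32, 0.09 and 0.16 over 8787 genes, so the numbers were not taken as pairs. With the replicate number as a block, 3 adhesion genes were higher and 1 lower, 347 genes in all were lower, and 0 transcript shares were called (by limma) over all genes. Selplg and Itgae missed the threshold there, with an adjusted p of 0.0705 and 0.0680 by edgeR.

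With 3 libraries per group, a change that did not pass is not shown to be absent. Itgad and Itgb4 had too few counts to be tested at this depth.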
